A study of Homo sapiens with 42 samples.

Results

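The HOX genes encode homeodomain transcription factors that set position along the body axis, and in humans they lie in the clusters HOXA, HOXB, HOXC and HOXD on chromosomes 7, 17, 12 and 2. The accessibility of 38 listed HOX genes, out of 19974 protein-coding genes, was followed here through the peak lists of 42 ATAC-seq samples. In ATAC-seq a transposase cuts and tags accessible chromatin, and a peak is a place where its insertions pile up. HOXA contributed 10 genes, HOXB 10, HOXC 9 and HOXD 9, matched by symbol to RefSeq. A peak was given to a gene when its summit lay inside the gene or within 5 kb of either end. The windows of the genes together spanned 109.7 kb in HOXA, 120.2 kb in HOXB, 123.0 kb in HOXC and 99.0 kb in HOXD. Because the genes lie close together the windows overlap: HOXA3 spans HOXA4, HOXA5 and HOXA6, and HOXC4, HOXC5 and HOXC6 share a start, so 1 summit can count for several genes. Cluster totals count each summit once.

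All 7 lines are established human cancer cell lines labelled wild type. The solid tumour lines are 22RV1, a prostate adenocarcinoma, DU4475, an invasive breast carcinoma, HCT116, a colorectal adenocarcinoma, and RD, a rhabdomyosarcoma. Of the melanoma lines 92-1 is uveal and A375 is labelled melanoma, and MV411 is an acute myeloid leukemia. Each line received FHT-1015, a dual inhibitor of the BAF remodelling ATPases SMARCA4 and SMARCA2, or DMSO as the negative control, for 4 h, with 3 biological replicates per group. MV411 is not among the lines that the series' design text names. The labels do not say whether the replicates were separate cultures, so the tests measure the spread between these samples only.

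In vertebrates the genes of a cluster carry numbers by paralogue group, with low numbers at the end that is active in the anterior body and high numbers at the end active in the posterior body. Cells keep part of this pattern in culture, and the clusters are textbook targets of the Polycomb proteins, which repress them, and of the Trithorax proteins, which keep them active. HOX proteins bind DNA together with TALE homeodomain partners of the PBX, MEIS and PKNOX families. HOXA9 with its partner MEIS1 is known for its part in acute myeloid leukemia with rearranged KMT2A.

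Libraries differed in ways that bear on every count. Peaks with a −log10 q value of 5 or more, called strict here, numbered from 1412 to 121774 per sample, and the background pileup, a stand-in for relative depth recovered from the deposited values, ranged from 0.0341 to 2.79. The FHT-1015 replicates 2 and 3 of 92-1 held the fewest strict peaks. The FHT-1015 replicate 2 of A375 stood apart from the other replicates of its group in the HOX clusters, with 67237 strict peaks genome-wide against 27964 and 32095. Its list is thus as long as those of the A375 DMSO replicates 1 and 2 (60943 and 65602), and that of DMSO replicate 3 (26365) is as short as those of the other FHT-1015 replicates. Whether these 2 libraries carry the right labels was not tested, and the labels were kept. Peak names in 92-1, 22RV1, HCT116 and MV411 hold the word small, with median widths of 192 to 240 bp per list, and those in RD, A375 and DU4475 do not, with widths of 273 to 429 bp. The labels do not say what the word marks. Of the lineage markers chosen for each line, those with a strict peak in all 3 DMSO samples were 5 of 5 in 22RV1, 4 of 5 in RD, 4 of 5 in DU4475 and 6 of 6 in MV411. They were 2 of 5 in HCT116, where VIL1 had none, and only MITF of 5 in both 92-1 and A375, and SOX10 had no strict peak in the DMSO samples of 92-1. Only the prostate and myeloid markers were open most often in their own line. The muscle markers were open as often in MV411 (4 of 5), and the breast and colon markers more often in 22RV1 (5 of 5 each). The melanocyte markers were open more often in 22RV1, DU4475 and MV411 (3 of 5 each). These other lists thus do not set their lines apart.

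Several recurring HOX peaks sat on gene starts of the HOXA cluster, and the 250 bases before 4 of these starts are shown. The starts shown for HOXA3, HOXA4 and HOXA13 were open in most lines and that for HOXA10 in 4. HOXA3 and HOXA10 have more than 1 start, and the start most often open with DMSO was taken. The outermost HOXA3 start (chr7:27152584-27152833) was open in 0 DMSO samples. RefSeq promoters of build GRCh38.p14 matched 20 of the 38 genes. All 4 lie on the minus strand of chromosome 7, at chr7:27130758-27131007 for HOXA4, chr7:27150951-27151200 for a start inside HOXA3, chr7:27200092-27200341 for HOXA13 and chr7:27179862-27180111 for HOXA10. They are written 5′ to 3′ in the direction of the gene, and capitals mark every match to the motifs searched on both strands: the TATA box TATAAA, the NF-Y motif CCAAT, the SP family motif GGGCGG, the PBX and HOX motif TGATNNAT, the homeodomain motif TAATTA, the E-box CACGTG and the AP-1 motif TGANTCA.
HOXA4: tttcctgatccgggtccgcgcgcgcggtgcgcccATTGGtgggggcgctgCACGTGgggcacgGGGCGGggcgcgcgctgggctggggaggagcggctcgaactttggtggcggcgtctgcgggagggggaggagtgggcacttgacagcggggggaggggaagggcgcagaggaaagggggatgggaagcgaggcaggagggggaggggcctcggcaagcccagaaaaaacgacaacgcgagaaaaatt
HOXA3: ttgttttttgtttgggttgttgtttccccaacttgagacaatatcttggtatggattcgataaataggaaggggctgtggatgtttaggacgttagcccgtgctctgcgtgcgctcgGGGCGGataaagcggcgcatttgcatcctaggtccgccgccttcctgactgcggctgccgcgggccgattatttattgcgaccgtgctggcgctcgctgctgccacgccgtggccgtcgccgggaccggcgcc
HOXA13: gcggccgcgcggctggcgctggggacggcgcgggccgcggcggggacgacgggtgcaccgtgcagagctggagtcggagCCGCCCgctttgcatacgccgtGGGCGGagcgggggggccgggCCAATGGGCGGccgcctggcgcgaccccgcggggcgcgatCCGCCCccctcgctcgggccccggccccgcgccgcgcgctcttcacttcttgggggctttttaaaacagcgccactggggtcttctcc
HOXA10: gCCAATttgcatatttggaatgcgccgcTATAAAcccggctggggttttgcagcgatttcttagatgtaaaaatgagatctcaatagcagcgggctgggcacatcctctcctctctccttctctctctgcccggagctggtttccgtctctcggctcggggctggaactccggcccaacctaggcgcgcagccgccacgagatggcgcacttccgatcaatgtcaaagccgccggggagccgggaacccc
The HOXA13 sequence held 40 CpG dinucleotides and was 78.0% G or C, the HOXA4 and HOXA3 sequences held 26 CpG each, and the HOXA10 sequence held 19, against a median of 11 over 34943 promoters of the same length. GGGCGG occurred 4 times at HOXA13 and once each at HOXA4 and HOXA3, and 42.5% of all promoters hold it. CCAAT occurred once each at HOXA4, HOXA13 and HOXA10 and in 32.0% of all promoters, and at HOXA13 it directly adjoins a GGGCGG. The TATA box occurred in the HOXA10 sequence alone among these 4 and in 10.8% of all promoters, and CACGTG in the HOXA4 sequence alone and in 6.32% of all. The PBX and HOX motif was not found in these 4 windows and occurs in 6.49% of all promoters. The homeodomain motif (4.35% of all) and the AP-1 motif (6.59% of all) were not found in them either.

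The HOXA4 start was accessible in 6 of the 7 lines with either treatment. The 500 bp region over it (chr7:27130708-27131207, inside HOXA3 as annotated) had a strict peak in all 18 DMSO samples and all 18 FHT-1015 samples of the lines other than 92-1, and in 0 of 3 and 0 of 3 samples of 92-1. HOXA4 is outside the rule that chose the named genes and was singled out after its values were seen. In 22RV1 the peak ranked 2085, 3159 and 3020 in the DMSO lists, with a fold enrichment over background of 20.1, 23 and 22.1, the authors' values for each peak. In MV411 it ranked 50614, 41422 and 49945 with a fold of 10.7, 12 and 10.2. The same promoter was thus among the strongest peaks of 1 line and below the 20000 strongest of another.

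HOXA13, which patterns distal limb and hindgut, had a region at its start (chr7:27200000-27200499, 0.159 kb outside the gene at its centre) with a strict peak in 19 DMSO and 17 FHT-1015 samples. It was called in all 3 DMSO samples of 22RV1, RD, DU4475, HCT116 and MV411 and in 2 of 3 in 92-1 and A375. With FHT-1015 it was called in all 3 samples of 22RV1, DU4475, HCT116 and MV411, in 2 of RD and A375 and in 1 of 92-1. The region at the HOXA3 start shown (chr7:27150803-27151302) was called in 17 DMSO and 16 FHT-1015 samples and in 0 DMSO samples of HCT116. The region at the HOXA10 start shown (chr7:27179706-27180205) was called in 11 and 8, in DMSO samples of 22RV1, RD, DU4475 and MV411 only. None of these 4 regions differed with treatment in the exact stratified test over lines (p = 1, 0.63, 1 and 0.35 for HOXA4, HOXA13, HOXA3 and HOXA10, adjusted p = 1 each).

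The other clusters each held 1 or 2 regions that recurred in most lines. In HOXC, a region inside HOXC4, HOXC5 and HOXC6 (chr12:54017827-54018326) was called in 17 DMSO and 15 FHT-1015 samples and a region 0.119 kb from HOXC10 (chr12:53984777-53985276) in 14 and 15. In HOXD, a region 1.81 kb from HOXD13 (chr2:176097502-176098001) was called in 16 and 17 samples and a region inside HOXD13 (chr2:176093031-176093530) in 13 and 10. In HOXB, a region inside HOXB3 (chr17:48585300-48585799) was called in 18 and 12, and its neighbour (chr17:48585821-48586320) in 9 and 6. A region outside the listed genes, 4.22 kb from HOXA2, was called in 21 of 21 DMSO and 17 FHT-1015 samples and makes up most of the count of HOXA2.

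Over all 4 clusters 141 regions had a strict peak in at least 1 sample. Their sharing between lines is given without that of all regions, which was not counted. In 78 of them no line had a peak in all 3 DMSO samples, in 31 exactly 1 line had, in 15 regions 2 lines and in 8 regions 3 lines. Regions open in all 3 DMSO samples of 5 or more lines numbered 6, with 4 in 5 lines, 1 in 6 and 1 in 7. By line the regions open in all 3 DMSO samples numbered 37 in DU4475, 34 in RD, 21 in A375, 17 in 22RV1, 16 in MV411, 4 in HCT116 and 1 in 92-1. Of all 315190 regions of the genome, those open in this way numbered 73478 in MV411, 38797 in 22RV1, 30301 in DU4475 and 25774 in RD. They numbered 22901 in A375, 12483 in HCT116 and 9220 in 92-1. The 3 lines with the most open HOX regions are those whose peak names lack the word small. Naming, width and line thus cannot be told apart in this order. Among strict HOX summits of the DMSO samples, between 35.7% (22RV1) and 55.5% (RD) lay within 1 kb of an end of a listed gene.

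**Figure D1:**
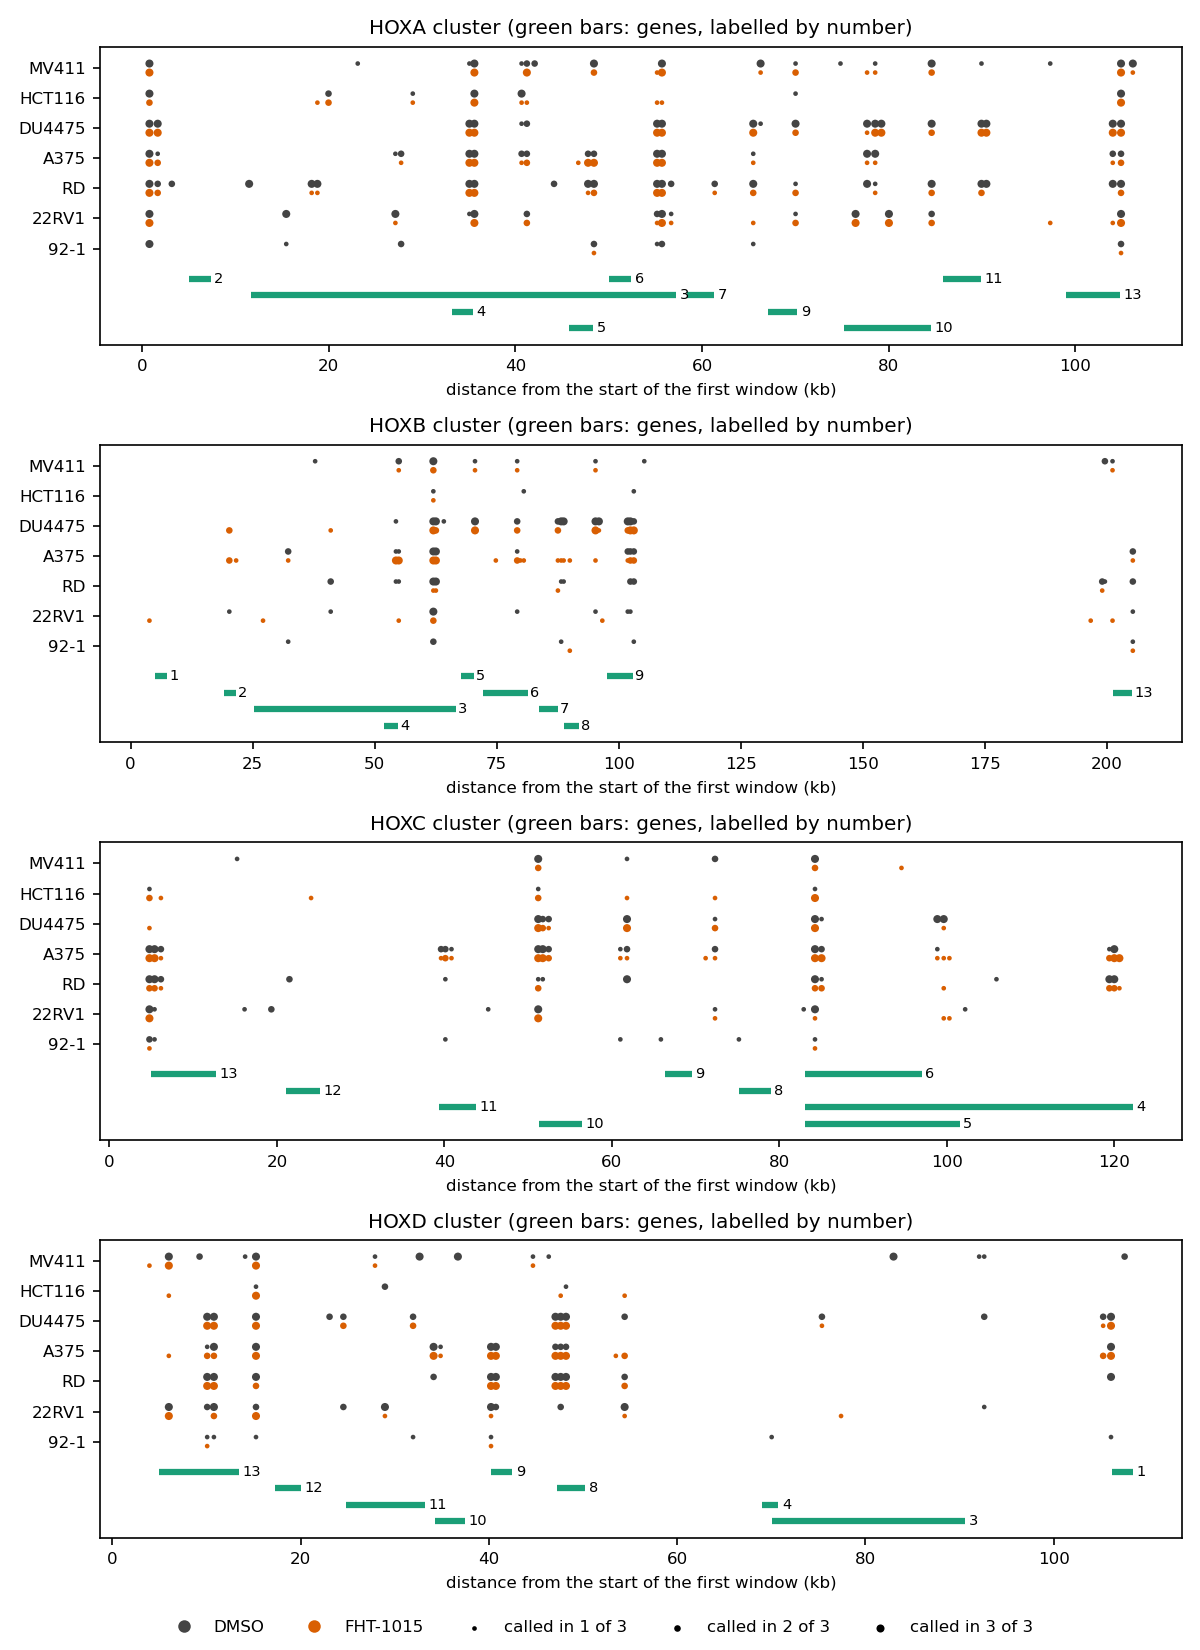
Regions of 500 bp with a strict peak along the 4 clusters, by line (y axis) and distance in kb from the start of the first gene window (x axis). Dot size is the number of replicates called out of 3, dark for DMSO and orange for FHT-1015, and green bars are the listed genes. Columns of dots at the HOXA4 and HOXA13 starts and inside HOXC4 recur in most lines.

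HOX genes carried fewer peaks than protein-coding genes in general. The median of the mean strict peaks per sample was 1.08 over the 38 genes and 1.69 over all genes, but HOX genes are short, with a median length of 3.79 kb against 24.2 kb. A mean of at least 1 strict peak was reached by 23 of the 38, and each of the 38 had a strict peak in at least 1 sample. The share of the 38 genes with a strict peak in all 3 DMSO samples was 65.8% in DU4475, 63.2% in MV411, 57.9% in RD, 50% in 22RV1, 47.4% in A375, 10.5% in HCT116 and 7.89% in 92-1. The same share over all protein-coding genes was 69.6% in DU4475, 80.8% in MV411, 64.5% in RD, 77.5% in 22RV1, 55.4% in A375, 52.0% in HCT116 and 29.0% in 92-1. HCT116 had 19 HOX genes without a strict peak in its DMSO samples, among them HOXA5, HOXA6, HOXA7, HOXA10 and HOXA11, and 22RV1 had 5. HOXB1, a hindbrain gene, was the only member without a strict peak in the DMSO samples of all 7 lines, and its single strict peak was in the FHT-1015 replicate 3 of 22RV1.

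HOXA was the most accessible cluster in the DMSO samples. RD had 25, 30 and 30 strict HOXA summits in its 3 DMSO samples, DU4475 24, 25 and 25, A375 19, 18 and 6, MV411 14, 11 and 12, 22RV1 10, 12 and 11, 92-1 8, 4 and 3 and HCT116 4, 7 and 5. RD and DU4475 did not overlap with the other lines. HOXD followed, with 18, 14 and 14 summits in DU4475. The RD samples had 15, 15 and 13, the A375 samples 9, 10 and 5, the MV411 samples 9, 8 and 8 and the 22RV1 samples 6, 9 and 9. For HOXC, RD gave 15, 14 and 9, A375 16, 12 and 5 and DU4475 10, 9 and 7, and each DMSO sample of HCT116 gave 1. HOXB had the lowest mean of the clusters in 4 of the lines (22RV1, RD, A375 and 92-1), was level with HOXC in HCT116, and reached at most 13 summits in a DMSO sample (DU4475).

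The count of open elements along HOXA by position depended on the list used. Each summit was given to 1 gene, the shortest that holds it or otherwise the nearest. DU4475 had 14.7 ± 0.577 strict summits at HOXA9 to HOXA13 and 7.67 ± 0.577 at HOXA2 and HOXA3 (SD, n = 3). RD had 10 ± 1 and 14 ± 3, MV411 6 ± 1 and 6 ± 1, 22RV1 4 ± 1 and 6.67 ± 1.53, and HCT116 1.33 ± 0.577 and 4 ± 1. The middle genes HOXA4 to HOXA7 had 4.33 ± 1.53 in RD and at most 3 in the mean of another line, but the open HOXA4 start falls inside HOXA3 by this count. Among the 20000 strongest peaks the order of the ends turned in DU4475, with 1, 2 and 2 summits at HOXA9 to HOXA13 and 6, 5 and 5 at HOXA2 and HOXA3, and RD had the most at the posterior end, with 2, 3 and 4. These are descriptions, with no test.

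To set lines side by side without the length of their lists, the 20000 strongest peaks of each DMSO sample were used. Among these, HOXA held 8, 11 and 12 summits in RD and 8, 8 and 8 in DU4475, and 0, 1 and 0 in MV411. HOXB held none in the DMSO samples of 22RV1, RD, DU4475 and MV411. For 9 of the 38 genes no DMSO sample of any line had such a peak. MV411, a leukemia line, had strict peaks at HOXA9 in all samples (2, 2 and 2 with DMSO, 1, 2 and 2 with FHT-1015), but the strongest of them ranked 56107, 40853 and 62132 in the DMSO lists. Its 20000 strongest peaks held 1 HOX summit over its 3 DMSO samples.

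An exact test of 1 line against the other 18 DMSO samples, adjusted over all genes and lines, called 7 HOX genes. In RD the test called HOXA3, HOXA9 and HOXD9 (3 of 38, and 2.5% of all genes). In DU4475 it called HOXC4, HOXC5, HOXC6 and HOXC8 (4 of 38, and 4.67% of all genes). It called 0 HOX genes in 92-1 (0.691% of all genes), 22RV1 (1.15%), A375 (0.941%), HCT116 (0.451%) and MV411 (1.56%). HOXA3 had 5, 6 and 6 of the strongest peaks in RD and at most 4 in any other DMSO sample, a mean difference of 3.83. HOXA9 had 1, 1 and 2 in RD and 0 in every other DMSO sample, a difference of 1.33. HOXD9 had 2, 2 and 2 in RD, 1 in each A375 DMSO sample, 0, 0 and 1 in 22RV1 and 0 elsewhere, a difference of 1.78. For HOXC4 the DU4475 samples had 3, 4 and 3, those of RD 2, 0 and 2, those of A375 0, 1 and 2 and those of 92-1 1, 0 and 1, a difference of 2.83. HOXC5 and HOXC6 share these summits, each with 3, 4 and 3 in DU4475 and a difference of 2.94. HOXC8 had exactly 1 in each DU4475 sample and 0 in every other DMSO sample, a difference of 1.00. The whole HOXC cluster held 3, 4 and 3 such summits in DU4475, so that of HOXC8 is also counted for HOXC4. The 4 calls of DU4475 thus rest on 1 group of shared summits and are not separate results. Each of the 7 had p = 0.000752 by this exact test, the smallest that 1330 choices of 3 from 21 samples can give, and adjusted p = 0.0399.

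These 7 calls depended on the choice of peaks, and their passing rested on how many genes reached the smallest p. Because the adjustment calls only genes at the smallest p, leaving out 1 of 11 of the 21 DMSO samples (each of RD, DU4475 and MV411, and replicates 2 and 3 of 22RV1) ended every call, and leaving out 1 of the other 10 left 7 or 8 HOX calls. Without 1 sample of its own line a gene cannot go below p = 0.00526 by the exact test, and could hardly pass. Leaving out samples thus does not show whether the HOX counts rest on single samples. RD and DU4475 are both among the 3 lines whose peak names lack the word small. Within these 3 lines the lowest count of each called gene in its own line still lay above the highest of the other DMSO samples. Against the lines with the other naming, naming and line cannot be told apart. With strict peaks the test called HOXA3, HOXA6, HOXD8, HOXD9 and HOXD10 in RD (1.69% of all genes) and HOXA10, HOXB8, HOXC5 and HOXC6 in DU4475 (5.56%). With the 50000 strongest peaks it called 9 HOX genes in RD (3.65% of all genes), HOXA3 and HOXD9 among them, and HOXA10 alone in DU4475 (4.84%).

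**Figure D2:**
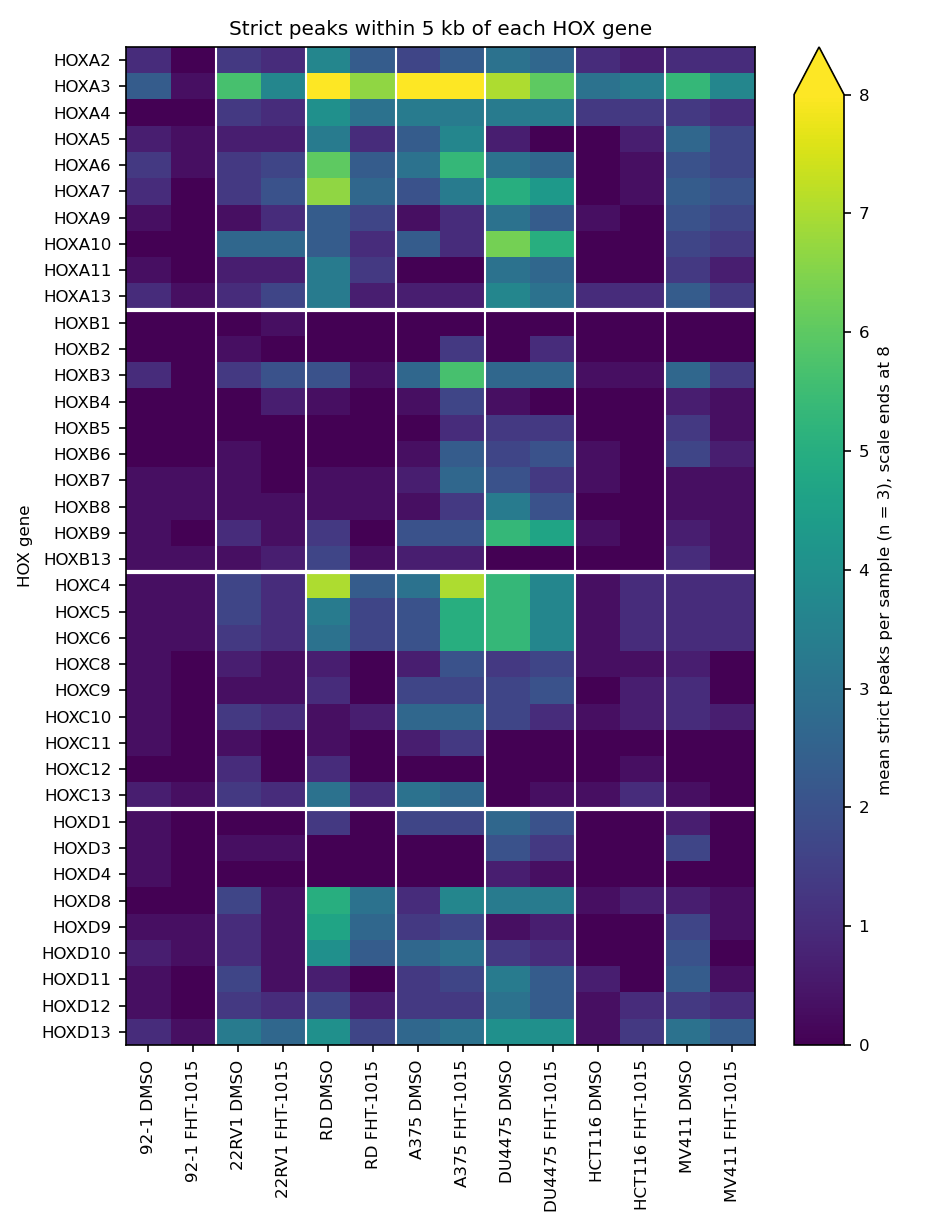
Mean number of strict peaks inside or within 5 kb of each of the 38 genes (rows, by cluster and paralogue number) in each line and treatment (columns, n = 3 samples each), on a colour scale that ends at 8. HOXA3, a long gene that spans its neighbours, is the brightest row, and HOXB1 is dark throughout apart from 22RV1 with FHT-1015.

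With FHT-1015, strict HOX peaks were fewer in RD, MV411 and 22RV1 without overlap of the groups, and the direction was not shared by all lines. In RD the summits of the 4 clusters averaged 60.7 ± 4.93 in the controls and 25 ± 14 after treatment, 41.2% of the control (SD, n = 3). Whether fewer cells had a site open or each cell had less signal cannot be told apart in bulk samples. MV411 went from 29.7 ± 2.89 to 16 in each sample, which is 53.9%. 22RV1 went from 28.0 ± 3.46 to 20.7 ± 0.577, which is 73.8%. Replicates of both treatments overlapped in 92-1 (22.9% of the control), DU4475 (85.2%), HCT116 (126.9%) and A375 (138.1%). Over all strict peaks of the genome the FHT-1015 mean was 46.5% of the control in RD, 47.2% in MV411, 59.3% in 22RV1, 22.4% in 92-1, 74.0% in DU4475, 94.6% in HCT116 and 83.2% in A375. With thinning the HOX and genome-wide percentages were 42.5% and 42.6% in RD, 50% and 53.7% in 22RV1 and 76.8% and 68.2% in MV411. The thinned HOX totals stayed apart in RD and 22RV1 but overlapped in MV411 (23, 13 and 20 with DMSO, 10, 19 and 14 with FHT-1015). The higher mean of A375 comes from its FHT-1015 replicate 2, which had 105 strict HOX summits against 25 and 33 in the other replicates. Without it A375 stood at 73.7% of the control.

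By cluster, the lower counts were widest in RD. RD HOXA went from 25, 30 and 30 to 13, 6 and 20 summits, HOXB from 9, 4 and 3 to 1, 0 and 2, HOXC from 15, 14 and 9 to 5, 0 and 7 and HOXD from 15, 15 and 13 to 6, 5 and 10, with no overlap in any cluster. MV411 also had no overlap in any cluster, with HOXD from 9, 8 and 8 to 3, 3 and 3, HOXB from 7, 5 and 5 to 4, 1 and 2, HOXC from 3, 4 and 3 to 2, 2 and 1 and HOXA from 14, 11 and 12 to 7, 10 and 10. HOXD at 36.0% of the control was the lowest and HOXA at 73.0% the highest of the MV411 clusters. In 22RV1 only HOXD was apart, from 6, 9 and 9 to 4, 4 and 4. In DU4475 only HOXA was apart, from 24, 25 and 25 to 19, 23 and 19, and in 92-1 only HOXA, from 8, 4 and 3 to 2, 0 and 0. HCT116 was the only line with a cluster that was higher without overlap, HOXC from 1, 1 and 1 to 4, 3 and 4. With thinning, HOXA and HOXD in RD and HOXD in 22RV1 stayed apart. All 4 clusters of MV411, HOXB and HOXC in RD, HOXA in DU4475 and HOXC in HCT116 then overlapped between treatments. For 92-1, which was left out of the thinning comparison, HOXA overlapped among the 20000 strongest peaks (1, 3 and 3 with DMSO, 2, 0 and 2 with FHT-1015). Its FHT-1015 replicates 2 and 3 held only 2037 and 1412 strict peaks genome-wide. These cluster totals were not tested, since 3 against 3 samples cannot go below an exact p of 0.1.

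**Figure D3:**
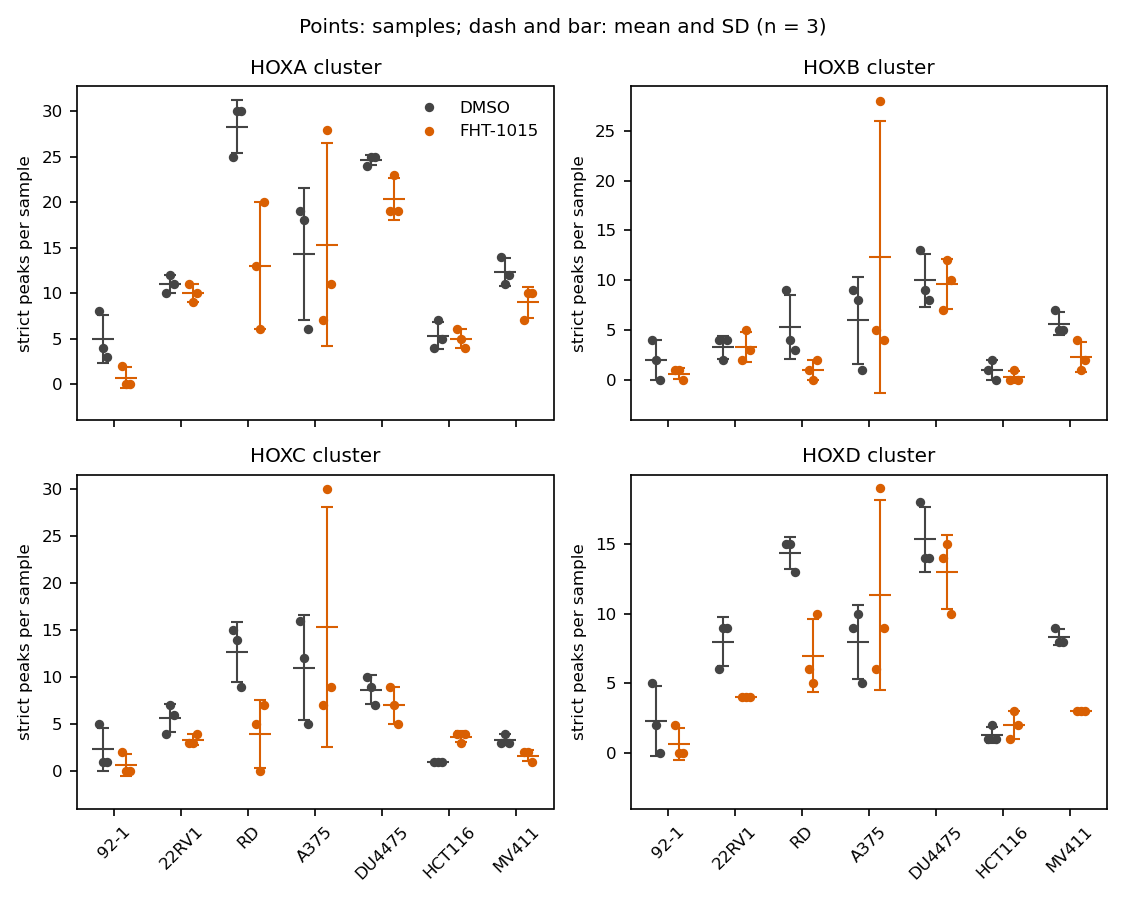
Strict peaks per sample in each HOX cluster (y axis) by line (x axis), dark for DMSO and orange for FHT-1015, with points for samples and a dash and bar for the mean and SD (n = 3). The groups of RD and MV411 are apart in all 4 panels, and 1 FHT-1015 sample of A375 stands above the rest, at 28 to 30 summits in HOXA, HOXB and HOXC.

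Tested gene by gene over the 7 lines, 0 of the 38 HOX genes had fewer strict peaks after adjustment, while 26.6% of all protein-coding genes did (5315 of 19974, exact stratified test, Benjamini-Hochberg). None had more, against 0.00501% of all genes (1 gene). At an unadjusted p below 0.05, 6 of the 38 had fewer (37.9% of all genes) and 0 had more (0.03% of all genes). Those 6 were HOXD1 (p = 0.0169), HOXA11 (p = 0.0253), HOXD11 (p = 0.0269), HOXA10 (p = 0.0356), HOXA13 (p = 0.0363) and HOXA3 (p = 0.0373), all by the exact stratified test. HOXD1 came closest, with adjusted p = 0.0595. With the replicate number as a block the test called 2 HOX genes with fewer strict peaks, HOXD11 and HOXA10 (23.9% of all genes). HOXB2 was the member with the largest sum in the other direction, 3.0 peaks above the sum expected from its lines (exact test, p = 0.2). In simulated data with the 38 genes at 1/3 of their DMSO level, this test found 23 of 38. The simulated samples of a line and treatment differed by counting error alone, and many other genes were lowered as well. The libraries of the data differ more, so the simulation can overstate what the test finds. Among the 23 HOX genes with a mean of at least 1 strict peak the main test also called 0, against 4932 of 13775 genes.

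The count of HOX calls changed most when samples of A375 were left out. Without its FHT-1015 replicate 2 the test called 6 HOX genes with fewer strict peaks (37% of all genes), namely HOXD1 (exact test, adjusted p = 0.00283), HOXA3 (adjusted p = 0.00566), HOXD10 (0.0247), HOXD11 (0.0259), HOXA10 (0.0279) and HOXA2 (0.0347). Without A375 altogether, an alternative chosen after seeing the data, it called 4 (34.7% of all genes), HOXA3, HOXD1, HOXA2 and HOXD11 (exact test, adjusted p = 0.00274, 0.0103, 0.0232 and 0.0377). Without the A375 DMSO replicate 3 it also called 4, beside 7197 of all 19974 genes. In all, 14 of the 42 samples gave 1 to 6 HOX calls when left out, beside 5214 to 7382 calls over all 19974 genes. The others were 92-1 DMSO replicates 2 and 3 (2 each), 22RV1 DMSO replicate 3 and each 22RV1 FHT-1015 replicate (1 each), RD FHT-1015 replicate 3 (1), DU4475 DMSO replicates 2 (1) and 3 (3), DU4475 FHT-1015 replicates 1 and 2 (2 each) and MV411 DMSO replicate 3 (1).

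Within single lines the HOX share was near that of all genes in RD and lower in MV411 and 22RV1. In 92-1, DU4475, A375 and HCT116 few genes of any kind were called, so 0 or 1 of 38 shows no difference. HOX genes are also short, and the shares were not matched for length. A gene was counted when each FHT-1015 sample had fewer strict peaks than each DMSO sample. In RD 10 of 38 HOX genes did (21% of all genes), and 5 of 38 with thinning to a common background (17.4% of all genes), where the HOX share lies below that of all genes. The 10 were HOXA3, HOXA6, HOXA11, HOXA13, HOXB3, HOXC4, HOXC9, HOXD1, HOXD8 and HOXD13. In MV411 4 of 38 did (31% of all genes), HOXC9, HOXD3, HOXD10 and HOXD11. In 22RV1 1 did, HOXC12 (16.4% of all genes), and in 92-1 1, HOXA2 (5.28%). None did in DU4475 (6.46%), A375 (1.11%) or HCT116 (1.3%). In the opposite direction 0 of 38 were apart in every line, against 0.0% of all genes in 92-1, 0.295% in 22RV1, 0.0551% in RD, 0.796% in A375, 0.165% in DU4475, 0.811% in HCT116 and 0.0651% in MV411.

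**Figure D4:**
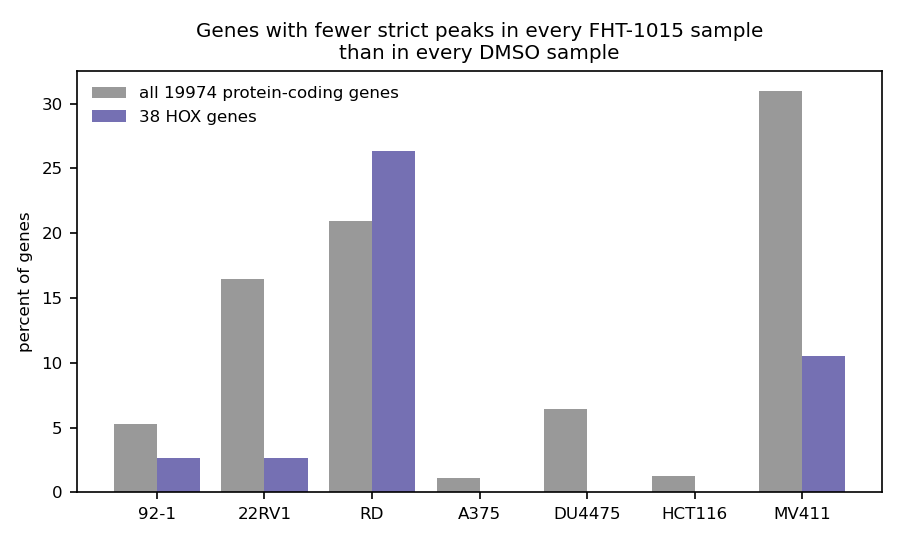
Percent of genes (y axis) with fewer strict peaks in every FHT-1015 sample than in every DMSO sample, by line (x axis), grey for all 19974 protein-coding genes and violet for the 38 HOX genes. The HOX bar is somewhat above the grey bar in RD, with 10 of 38 genes, an order that turns with thinning (5 of 38), and is lower in the other 6 lines.

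The largest falls without overlap within a line were at HOXA3 in RD, HOXD11 and HOXD10 in MV411, HOXC12 in 22RV1 and HOXA2 in 92-1. HOXA3 had 12, 17 and 18 strict peaks in the DMSO samples of RD and 8, 2 and 10 with FHT-1015, a mean difference of -9. HOXD11, a posterior gene of limb and kidney development, had 2, 2 and 3 in MV411 with DMSO and 1, 0 and 0 with FHT-1015. HOXD10 had the same mean difference of -2 there, with 2, 2 and 2 against 0, 0 and 0. HOXC12 had 1 strict peak in each DMSO sample of 22RV1 and 0 in each FHT-1015 sample. HOXA2, a hindbrain gene, had 1 in each DMSO sample of 92-1 and 0 in each FHT-1015 sample, all at the region outside the listed genes. In 92-1 and 22RV1 the counts are thus 1 peak against none. HOXA3, which acts in the neck and pharyngeal arches, led 6 lines by the 20000 strongest DMSO peaks, and outside RD its strict peaks overlapped between treatments. They were 13, 11 and 4 with DMSO and 5, 18 and 8 with FHT-1015 in A375, and 6, 7 and 8 against 5, 7 and 6 in DU4475. They were 4, 6 and 7 against 4, 3 and 4 in 22RV1, and 7, 5 and 4 against 3, 4 and 4 in MV411. They were 2, 4 and 3 against 4, 3 and 3 in HCT116, and 3, 3 and 1 against 1, 0 and 0 in 92-1. By the same ranking the gene second to HOXA3 in RD was HOXA7, which had 5, 7 and 8 with DMSO and 2, 1 and 5 with FHT-1015, with overlap. HOXD10, second to HOXA3 in A375, had 3, 3 and 2 with DMSO and 2, 5 and 2 with FHT-1015. HOXC4, level with HOXC5 and HOXC6 for second in DU4475, had 6, 5 and 5 with DMSO and 5, 3 and 3 with FHT-1015. HOXA10, level with HOXA2, HOXA4, HOXA13 and HOXC13 for second in 22RV1, had 3, 3 and 2 with DMSO and 3, 3 and 2 with FHT-1015. In MV411 the ranking put HOXA2 first, with 1 strict peak in all 6 samples. HOXD13, the most posterior HOXD gene, had 3, 3 and 3 with DMSO and 2, 3 and 2 with FHT-1015 in MV411. HOXA13 had 1 in all 6 samples of HCT116, and 2, 0 and 1 with DMSO and 1, 0 and 0 with FHT-1015 in 92-1.

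Among single regions no HOX region passed the adjustment: 0 of 141 were called less often (0.00127% of all 315190 regions, 4 regions) and 0 more often (0.0% of all). With so few regions passing, a region lost in only a few lines could not reach the threshold. Most HOX regions were open in few lines, so the test could hardly call them. At an unadjusted p below 0.05, 2 were called less often (2.82% of all regions) and 0 more often (0.0197%), and the lowest adjusted p of a HOX region was 0.645. The smallest p was that of a region inside HOXA10 (chr7:27172787-27173286), called in 9 DMSO and 3 FHT-1015 samples (exact stratified test, p = 0.034). In RD, A375 and DU4475 it was called in all 3 DMSO samples, and with FHT-1015 in 0, 1 and 1 samples. The HOXB3 region named above was called in 18 and 12 samples (exact test, p = 0.048), with 3 DMSO samples against 1 in RD. The region at the HOXD1 start (chr2:176188338-176188837) was called in 10 and 6 (exact test, p = 0.05), in all 3 DMSO and 0 FHT-1015 samples of RD but in 3 of 3 with either treatment in A375 and DU4475. The region near HOXA2 was called in 21 and 17 samples (exact test, p = 0.05), with 92-1 going from 3 to 0. Another, inside HOXA3 (chr7:27110546-27111045), was called in 4 and 0 (exact test, p = 0.05), 3 of the 4 in 22RV1. The region with the smallest p among those called more often lay inside HOXC4 (chr12:54054176-54054675), in 0 DMSO and 4 FHT-1015 samples (exact test, p = 0.05), all 3 of A375 and 1 of RD. The other regions with the smallest p of their clusters were 1 that lies 0.615 kb from HOXB8 (5 and 1 samples, exact test, p = 0.163), 1 that lies 4.53 kb from HOXC9 (9 and 5, exact test, p = 0.196) and 1 inside HOXD11 (5 and 1, exact test, p = 0.08).

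Of the HOX regions open in all 3 DMSO samples of a line, those without a call in any FHT-1015 sample of the line were 6 of 34 in RD (17.6%, against 20.8% of all such regions of the genome) and 3 of 16 in MV411 (18.8% against 32.7%). They were 1 of 17 in 22RV1 (5.88% against 26.4%), 3 of 37 in DU4475 (8.11% against 6.65%), 0 of 21 in A375 (7.49% genome-wide), 0 of 4 in HCT116 (5.85%) and 1 of 1 in 92-1 (40.3%). Set against all 315190 regions instead, the lost regions made up 1.7% in RD, 7.63% in MV411, 3.25% in 22RV1, 0.64% in DU4475, 0.544% in A375, 0.232% in HCT116 and 1.18% in 92-1. The 6 of RD lay inside or within 5 kb of HOXA3, HOXA10, HOXA11, HOXA13, HOXC9 and HOXD1. The 3 of MV411 lay inside HOXD3, HOXD10 and HOXD11 and had no strict peak in any other line. The promoter regions of HOXA3 and HOXA4 shown above, and that of HOXA13, were open in all 3 FHT-1015 samples of MV411. In 22RV1 the lost region lay inside HOXA3, and in DU4475 2 lay beside HOXB8 and 1 inside HOXC4 and HOXC5. In A375 1 HOX region was open in all 3 FHT-1015 samples and no DMSO sample (0.052% of all regions), the HOXC4 region named above. None was gained in this way in 92-1 (0.000317% of all regions), 22RV1 (0.0276%), RD (0.00254%), DU4475 (0.00952%), HCT116 (0.0787%) or MV411 (0.0587%).

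In lists of equal length the direction turned. Among the 20000 strongest peaks of each sample, HOX summits were more numerous with FHT-1015 in MV411 (0, 1 and 0 with DMSO, 4, 5 and 3 with FHT-1015), 22RV1 (6, 5 and 6 against 8, 9 and 8), RD (17, 16 and 21 against 23, 27 and 22), A375 (7, 7 and 11 against 13, 21 and 16) and HCT116 (7, 8 and 5 against 10, 12 and 15), with no overlap in these 5 lines. DU4475 had 15, 17 and 15 against 15, 17 and 16, and 92-1 4, 6 and 5 against 7, 2 and 7. The gene test on these lists called 0 HOX genes with fewer (1.62% of all genes) and 2 with more (4.42%), HOXA5 and HOXC13 (exact stratified test, adjusted p = 0.0392 and 0.0439), and at an unadjusted p below 0.05 it gave 0 with fewer (5.2% of all) and 7 with more (14%). HOXA5 had 0 such peaks in every DMSO sample of RD and MV411 and 1 in every FHT-1015 sample of both. HOXC13 went from 0, 0 and 0 to 1, 1 and 2 in HCT116.

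Within lines the genes that were higher without overlap in these lists were HOXA3, HOXA4 and HOXA5 in MV411 (3 of 38, 8.84% of all genes), HOXC10, HOXD12 and HOXD13 in 22RV1 (3, 5.79%), HOXC4, HOXC5, HOXC6 and HOXC13 in HCT116 (4, 1.41%), HOXB3 and HOXB4 in A375 (2, 4.72%) and HOXA5 in RD (1, 2.88%). Those lower were HOXD10 in RD (1, 2.48%) and HOXA2 in DU4475 (1, 0.896%). None was lower in 92-1 (2.8% of all genes), 22RV1 (3.99%), A375 (2.49%), HCT116 (1.09%) or MV411 (3.29%), and none was higher in 92-1 (1.62%) or DU4475 (0.946%). In MV411 HOXA3 went from 0, 0 and 0 to 2, 3 and 2 and HOXA4 from 0, 0 and 0 to 1, 1 and 1. The HOXA4 start region of MV411 ranked 50614, 41422 and 49945 in the DMSO lists and 7592, 11486 and 14477 in the shorter FHT-1015 lists. These lists count rank within a sample, and a peak can enter them when others leave, so they show no gain of accessibility.

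Partners and neighbours of the HOX genes were counted in the same gene test. Of 9 genes of TALE cofactors 4 had fewer strict peaks after adjustment and 0 more, of 6 ParaHox and CDX genes 1 and 0, of 9 genes flanking the clusters 1 and 0, and of 7 Trithorax and Polycomb regulators 0 and 0 (exact stratified test, against 26.6% and 0.00501% of all genes). In the test of 1 line against the others EVX2, which flanks HOXD, was called in RD, SMUG1, which flanks HOXC, in HCT116, and the ParaHox gene GSX2 in MV411.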

How the data were processed

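ATAC-seq libraries followed the original method with bead size selection on both sides, per the labels' protocols. Bowtie2, Picard, MACS2, limma, HOMER and build hg38 are named in the submitters' processing notes, without versions, and the lists carry no read counts. Each sample had its own deposited narrowPeak list, so replicates were not pooled. The authors' deposited columns hold fold enrichment over background (a ratio), −log10 p and −log10 q for each peak, and a deposited score that was not used. These values only ordered and selected peaks inside each list. The least significant peak of a list had −log10 p of 2.00 to 2.04, so strict peaks (−log10 q of at least 5) were the main unit. Pileup and background were solved from fold and p (tolerance 0.01 on −log10 p).

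The 38 HOX genes and the gene lists were chosen with earlier results of these data known. Genes are RefSeq GRCh38.p14, which here gives neither exons nor introns. Counts of strict summits per gene, inside or within 5 kb, and calls of 500 bp regions (overlap of at least 100 bp) were tested over the 42 samples with an exact permutation test stratified by line, two-sided, and the DMSO samples of 1 line against the rest with an exact test on the 20000 strongest peaks by −log10 p. All p-values were adjusted by Benjamini-Hochberg over all 19974 genes (for the line test over all genes and lines) or 315190 regions, with a threshold of 0.05. The unit is a count of peaks. In simulated data the gene test found 92 of 100 genes set to 0.2 of the DMSO level and 22 of 100 set to 0.5. These genes had a mean of at least 2 strict peaks. The region test found 50 of 50 regions lost in 4 lines, planted together with regions lost in 5, 6 and 7 lines. With as few regions passing as in the data, a loss in 4 lines would not pass, so this does not measure power here.

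Named were, in each line, the 2 genes with the most of the 20000 strongest peaks with DMSO, every gene past a test, the gene with the largest fall without overlap, and in each cluster the 2 regions with the smallest p and the 2 called in most DMSO samples. Alternatives were all deposited peaks, the 20000 and 50000 strongest, thinning to 0.5 of the lowest background of a line (92-1 left out), a distance of 1 kb, a mean of at least 1 peak, an overlap of 250 bp, single lines or samples left out, and the replicate number as a block. At most 6.37% of intervals were identical between 2 samples of a line. Counting error cannot be computed without read counts, and the depth in reads is unknown. Analyses used Python 3.11.15 with numpy 2.4.6, pandas 2.3.3 and scipy 1.17.1.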

Additional observations from a re-analysis of the deposited data

Results flagged for a closer look

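The strict peak counts of the HOXC cluster differed in direction between lines. Every FHT-1015 sample of HCT116 had more strict HOXC peaks (4, 3 and 4) than its DMSO samples (1, 1 and 1), a mean difference of 2.67, while every FHT-1015 sample of RD (5, 0 and 7 against 15, 14 and 9) and of MV411 (2, 2 and 1 against 3, 4 and 3) had fewer. The difference between the lines was not tested, and the opposite directions did not recur in the other lists. Among the 20000 strongest peaks HOXC was higher with FHT-1015 in RD too (5, 4 and 4 against 2, 1 and 2) and at 0 throughout in MV411, and with thinning the treatments overlapped in all 3 lines. The HCT116 samples overlapped between treatments in all strict peaks, with 22667 to 25702 with DMSO and 17552 to 27364 with FHT-1015.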

How the results depend on the processing

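With all deposited peaks the gene test called 0 genes with fewer and 0 with more, and with the 20000 strongest 324 and 883, of which 2 HOX genes had more. With thinning and without 92-1 it called 2590 and 2, without 92-1 alone 4 with more, without MV411 2374 and 0, and without A375 0 with more and 4 HOX genes with fewer. Leaving out single samples gave 4747 to 7382 genes with fewer, 1 to 3 with more and 0 to 6 HOX genes with fewer and 0 to 0 with more. In the line test strict peaks gave 4431 pairs of gene and line, and leaving out single samples gave 0 to 2405 pairs and 0 to 8 HOX pairs. Of all regions 0 were called less often with all peaks, 2 with an overlap of 250 bp, 0 without 92-1 and 3 to 5 when single samples were left out.

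Replicate numbers did not pair the samples over the lines: of 21 same-numbered pairs, 4 correlated above 0.1 (range -0.212 to 0.387) and 7 correlated best with their own number. In 92-1 each replicate correlated best with its own number (0.387, 0.0519 and 0.342). With the replicate block the gene test called 0 genes with more and 2 HOX genes with fewer (23.9% of all genes), HOXD11 (exact test, adjusted p = 0.0112) and HOXA10 (adjusted p = 0.0366), and the region test 0 regions less often.

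The percentages of control of the HOX totals depended on the list. With all peaks they were 93.7% in 22RV1, 70.3% in RD and 91.4% in MV411. With the 20000 strongest they were 147.1% in 22RV1, 133.3% in RD, 102.1% in DU4475, 185.0% in HCT116 and 1200% in MV411. With thinning they were 50% in 22RV1 and 76.8% in MV411. Single clusters turned with the 20000 strongest peaks in RD (HOXA 129.0%, HOXC 260%), MV411 (HOXA 1000%) and 22RV1 (HOXD 500%), and with all peaks in DU4475 (HOXA 101.6%) and MV411 (HOXD 106.1%). Leaving out single samples gave 4.29% to 41.0% in 92-1, 68.9% to 76.5% in 22RV1, 29.7% to 52.7% in RD, 73.7% to 175.4% in A375, 79.3% to 90.3% in DU4475, 115.8% to 157.1% in HCT116 and 52.5% to 57.1% in MV411. The cause of these shifts was not tested. The depth in reads is unknown. Background, its stand-in, was higher with FHT-1015 in 22RV1 (0.768 to 1.02 against 0.532 to 0.702), where strict peaks were fewer. It was lower with FHT-1015 in MV411 (0.260 to 0.270 against 0.400 to 0.495), where strict peaks were fewer too. In the other lines the ranges of the treatments overlapped.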
